A study of Mus musculus with 8 samples.

Results

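Hearts in which cardiomyocytes lacked Elmsan1 were compared with hearts that carried the same floxed alleles but no Cre, over all measured genes. The comparison used 6 of the 8 libraries of the series: 4 from Elmsan1 fl/fl;aMHC-Cre+/- hearts (here cKO 1 to cKO 4) and 2 from Elmsan1 fl/fl hearts (here floxed 1 and floxed 2). The other 2 libraries came from aMHC-Cre+/- hearts with no floxed allele (here Cre) and are given beside the results. All were whole hearts of male mice aged 8 weeks. The aMHC promoter (that of Myh6) drives Cre in cardiomyocytes, so the other cells of a cKO heart keep the gene. The cKO and floxed hearts differed in the Cre transgene as well as in the recombined locus, so a difference between them belongs to both together, and only the Cre hearts show the transgene without recombination. The comparison has only 2 floxed hearts, so the floxed mean behind each fold change rests on 2 libraries. Its error comes from a fit that pools the spread within the groups over all 8 libraries. An exact permutation of 4 against 2 libraries has 15 splits and cannot give a two-sided p below 0.0667. The labels name each library as a separate sample and say no more, so the p-values below measure the spread between these samples. In whole tissue, fewer cells of a type and less RNA per cell cannot be told apart.

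Elmsan1, also called Mideas, is the scaffold of the mitotic deacetylase complex MiDAC, which holds the histone deacetylases Hdac1 and Hdac2 together with Dnttip1. Histone deacetylases remove acetyl groups from histone tails, and acetylated histones mark active promoters and enhancers. Adult cardiomyocytes live on oxidation of fatty acids and other fuels in their mitochondria, contract through sarcomeres coupled to a calcium store, and are joined end to end by intercalated discs. The genes of these systems were therefore followed as groups.

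Total estimated counts per library ran from 17509564 to 25833259, and 15289 of 45706 genes had enough counts to be tested. Levels are counts relative to the TMM-scaled library total (CPM, with the total set to 1e6), which does not correct for transcript length, so levels are compared only for 1 gene between libraries. Cardiomyocyte identity was present in every library: the summed level of 16 cardiomyocyte markers was 71459 to 78803 CPM in cKO and 77955 and 78389 CPM in floxed hearts. cKO 3 and cKO 4 stood apart by fat cell genes, with Ucp1 of brown fat at 7.31, 0.692, 74.8 and 79.8 CPM in cKO 1 to 4, 0.214 and 0 CPM in the floxed hearts and 20.2 and 27.7 CPM in the Cre hearts. The summed level of the 11 fat cell markers was 664, 886, 1427 and 1325 CPM in cKO 1 to 4 against 342 and 331 CPM in floxed 1 and 2, and 407 and 604 CPM in Cre 1 and 2, so these genes varied among the control hearts too. In the cKO and floxed hearts most of this sum was Fabp4, which is also on the list of endothelial markers below. The sum is therefore no measure of fat cells alone. The share of counts from mitochondrial DNA was 22.1% to 29.3% in cKO and 25.5% and 28.4% in floxed hearts. With upper-quartile scaling or library size alone in place of TMM, the median log2 difference of all genes moved up by 0.13 and 0.14.

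Elmsan1 itself (ENSMUSG00000042507, chromosome 12, 84149176 to 84218881, minus strand, GRCm38) stood at 15.2, 15.5, 15.3 and 11.996 CPM in cKO 1 to 4, at 27.6 and 25.6 CPM in floxed 1 and 2, and at 28.6 and 25.3 CPM in Cre 1 and 2. All 4 cKO hearts were below all 4 control hearts. The log2 difference from the floxed hearts was −0.88 (SE 0.13, adjusted p = 0.000467, from edgeR's quasi-likelihood F test, Benjamini-Hochberg adjusted over all genes tested). The count covers the whole gene in the whole heart, and which exons were floxed is not given in the sources used here, so it does not measure the recombined share. Among the other MiDAC members, Hdac2, a catalytic subunit, also fell, from 45.4 and 48.6 CPM to 30.0 to 34.9 CPM (log2 −0.56, SE 0.10, adjusted p = 0.0012). Hdac1, the other catalytic subunit, stood at 19.2 to 24.6 CPM in cKO and at 19.6 CPM in both floxed hearts (log2 0.13, SE 0.12, adjusted p = 0.412). Dnttip1, which binds the deacetylase, did not pass either (log2 0.05, SE 0.13, adjusted p = 0.783). Of the 39 other genes tested within 1 Mb of Elmsan1, 5 were higher and 11 lower in cKO, where 19.8% of all genes were higher and 23.1% lower, so these counts lie near the shares over all genes.

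The difference between cKO and floxed hearts was broad. At an adjusted p under 0.05, 6559 genes (42.9% of those tested) were called, 3031 (19.8%) higher and 3528 (23.1%) lower in cKO, with a median log2 difference over all genes of 0.04. An unadjusted p under 0.05 was reached by 7818 genes (51.1%). Among the called genes, 1956 (12.8%) differed by at least 1 and 295 (1.93%) by at least 2 on the log2 scale. The 4 cKO libraries lay on 1 side of both floxed libraries for 9270 genes (60.6%). The same pattern in a gene named below is therefore shared with most genes tested. Upper-quartile scaling gave 3971 higher and 2787 lower genes, so that 58.8% of calls were higher instead of 46.2%, and library size alone gave 61.1%. Without floxed 1, 1365 higher and 2235 lower genes passed, and without floxed 2, 1336 and 2288. The same test between Cre and floxed hearts called 15 genes (0.0981%), 14 of them lower (0.0916%) and 1, which has no symbol, higher (0.00654%) in the Cre hearts, and all 15 also called between cKO and floxed hearts. In that comparison 526 genes (3.44%) reached an unadjusted p under 0.05, and DESeq2 called 57 adjusted.

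Direction followed transcript length. Over 13744 protein-coding genes, the rank correlation of the log2 difference with the length of the longest transcript was −0.378, and it was 0.302 with GC content. These are correlations across genes, which are not independent. Of the 530 genes whose longest transcript was under 1000 bases, 66.4% were higher and 1.89% lower in cKO, with a median of 0.78. The 2213 genes from 1000 up to 2000 bases had a median of 0.40, the 5637 from there up to 4000 bases 0.05, and the 4540 from there up to 8000 bases −0.20. Of the 824 genes of 8000 bases and more, 4.98% were higher and 45.0% lower, with a median of −0.41. Every cKO library showed the trend against the mean of the floxed hearts, with rank correlations of −0.332, −0.316, −0.394 and −0.406 for cKO 1 to 4. The Cre hearts gave 0.014 and 0.063, and floxed 1 against floxed 2 gave 0.056. RNA integrity was not given for these libraries, and its part in the trend was not tested. Because long and short transcripts moved apart, each gene was also fitted with smooth terms for length and GC content as offsets. That fit called 2405 genes higher (15.7%) and 3133 lower (20.5%), kept 4551 of the calls above, and left class medians from −0.00 to 0.20. Values from it are called length-adjusted below. Its length is that of the longest annotated transcript, which need not be the one expressed in the heart.

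**Figure D1:**
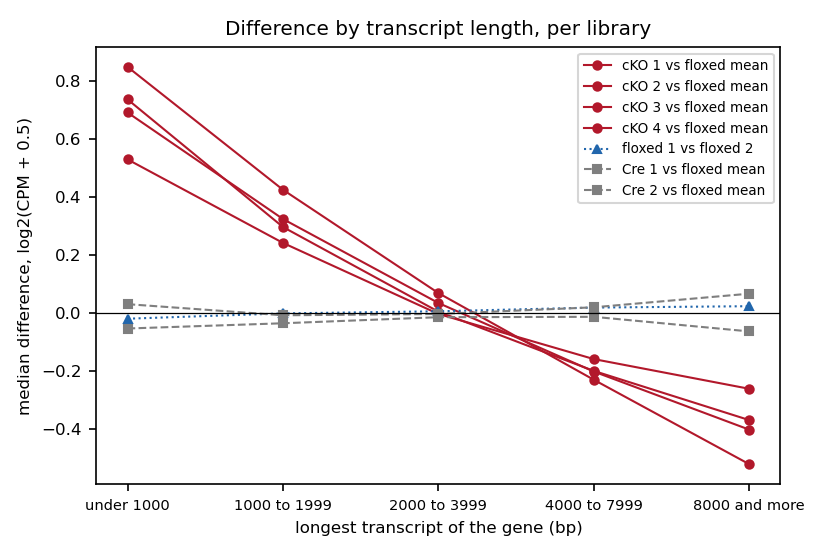
Median difference from the mean of the floxed hearts, in log2(CPM + 0.5), of protein-coding genes in 5 classes of longest transcript, with 1 line per library. The 4 cKO lines fall from between 0.531 and 0.850 in the shortest class to between −0.260 and −0.520 in the longest, while the Cre and floxed lines stay close to 0.

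Large falls outside the immediate early genes described next included Nt5c1a, Serinc4, Pm20d2 and Irs2. The gene with the most negative fitted value of those called in both Cre and cKO hearts, Rpl35a-ps4, falls outside the naming rule as a processed pseudogene and was chosen after its values were seen. It stood at 0 CPM in all 4 cKO and both Cre hearts and at 6.98 and 3.98 CPM in floxed 1 and 2, but counts can be divided between it and near-identical copies, so its value is uncertain. Nt5c1a, a cytosolic nucleotidase that makes adenosine from AMP (ENSMUSG00000054958, chromosome 4, 123201500 to 123216280, plus strand, GRCm38), stood at 0.316, 0.296, 0.728 and 0.0762 CPM in cKO 1 to 4 and at 14.6 and 12.3 CPM in floxed 1 and 2. The log2 difference was −5.24 (SE 0.38, adjusted p = 3.84e-05). The Cre hearts kept 10.7 and 9.52 CPM. Serinc4, of a family of membrane proteins, went from 15.2 and 13.9 CPM in floxed hearts to 1.26, 0, 0.514 and 0.533 CPM in cKO 1 to 4 (log2 −4.67, SE 0.56, adjusted p = 0.000564). Pm20d2, a peptidase that clears side products of carnosine synthesis, stood at 2.84, 1.33, 1.88 and 0.381 CPM in cKO 1 to 4 against 30.4 and 23.3 CPM in floxed 1 and 2 (log2 −4.10, SE 0.46, adjusted p = 0.000511). The Cre hearts held 10.5 and 15.1 CPM of Serinc4 and 19.8 and 19.3 CPM of Pm20d2. The largest falls and rises were named only where cKO and floxed hearts did not overlap, so their lack of overlap is no result. Irs2, an adaptor of the insulin receptor, was lower in all 4 cKO hearts, at 0.952 to 3.43 CPM, but its floxed values of 15.7 and 50.5 CPM were themselves far apart (log2 −3.74, SE 0.56, adjusted p = 0.00214). Length adjustment left the log2 differences of Nt5c1a, Serinc4, Pm20d2 and Irs2 at −5.83, −4.70, −4.59 and −3.70.

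**Figure D2:**
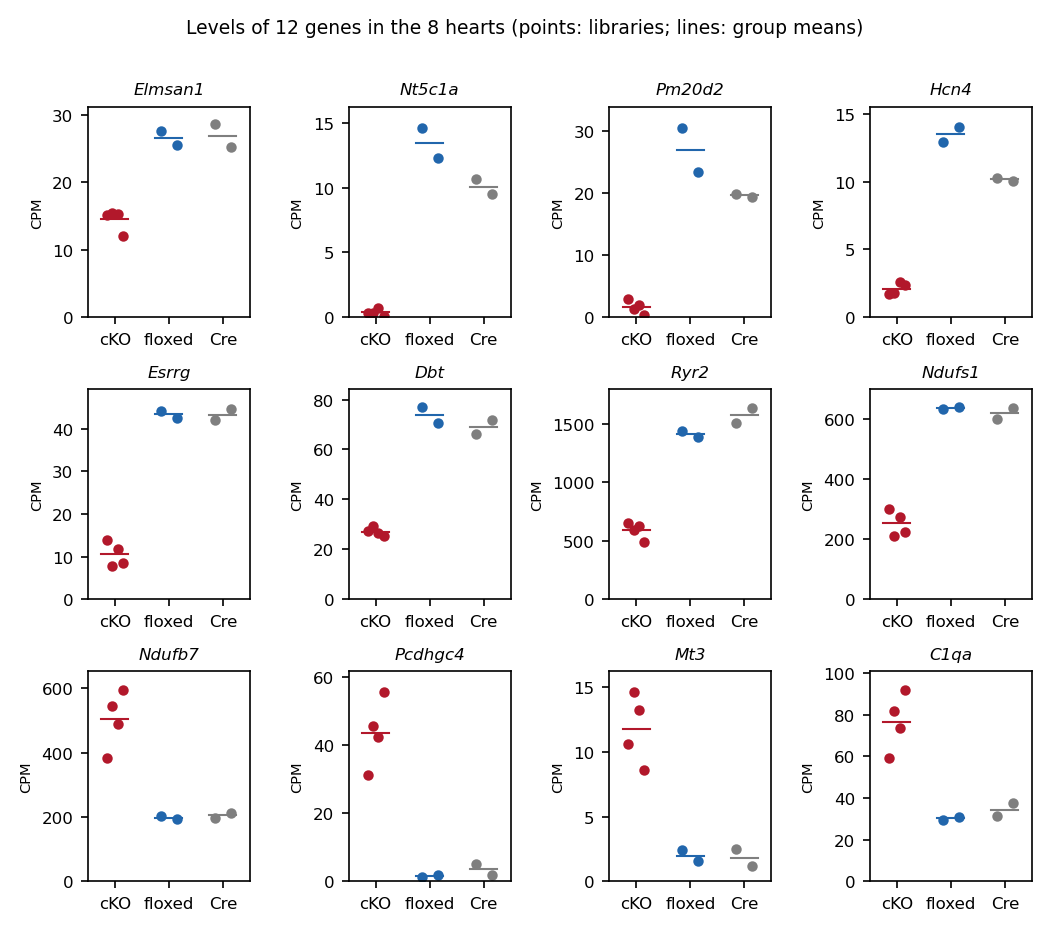
Levels in CPM of 12 genes in each library, with points for the 4 cKO, 2 floxed and 2 Cre hearts and a line at each group mean. Elmsan1, Nt5c1a, Pm20d2, Hcn4, Esrrg, Dbt, Ryr2 and Ndufs1 are lower, and Ndufb7, Pcdhgc4, Mt3 and C1qa higher, in every cKO heart than in either floxed heart.

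Immediate early genes, which are switched on within minutes of a stimulus without new protein synthesis, were the group with the lowest median. Of 40 tested, 29 were lower and 1 higher in cKO, with a median log2 difference of −1.60 against 0.04 over all genes. With length adjustment 31 were lower, with a median of −1.91. Promoters of 4 of these genes are shown because all 4 fell by more than 2 on the log2 scale and because the windows carry the elements through which such genes are known to be switched on. Each line gives the 250 bases before the RefSeq start (GRCm38.p6), 5′ to 3′ on the gene's strand. Capitals mark TGACGTCA, the site of CREB-type factors, its shorter core TGACG as it reads on the strand shown or its reverse complement, and the CArG box of serum response factor.
Btg2, chr1:134079156-134079405, minus strand: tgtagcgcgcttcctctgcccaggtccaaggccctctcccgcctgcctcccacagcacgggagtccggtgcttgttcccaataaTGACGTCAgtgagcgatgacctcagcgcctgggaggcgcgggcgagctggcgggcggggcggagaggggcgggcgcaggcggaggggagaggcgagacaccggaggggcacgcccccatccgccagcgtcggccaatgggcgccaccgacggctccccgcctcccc
Dusp1, chr17:26508473-26508722, minus strand: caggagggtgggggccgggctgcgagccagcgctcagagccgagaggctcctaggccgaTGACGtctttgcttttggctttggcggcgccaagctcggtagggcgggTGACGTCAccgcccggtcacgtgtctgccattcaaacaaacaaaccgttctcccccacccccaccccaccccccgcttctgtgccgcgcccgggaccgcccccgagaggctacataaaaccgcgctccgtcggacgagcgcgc
Fos, chr12:85473640-85473889, plus strand: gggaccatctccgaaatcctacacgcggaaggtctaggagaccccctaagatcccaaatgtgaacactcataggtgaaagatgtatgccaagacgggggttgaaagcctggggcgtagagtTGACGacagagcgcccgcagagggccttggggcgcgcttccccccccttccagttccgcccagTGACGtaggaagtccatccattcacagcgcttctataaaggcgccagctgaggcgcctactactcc
Zfp36, chr7:28379229-28379478, minus strand: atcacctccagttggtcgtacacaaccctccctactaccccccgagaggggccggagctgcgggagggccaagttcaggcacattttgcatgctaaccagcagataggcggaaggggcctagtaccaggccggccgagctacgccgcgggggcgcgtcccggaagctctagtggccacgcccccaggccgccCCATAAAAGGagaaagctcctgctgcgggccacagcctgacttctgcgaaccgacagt
Of the 31 immediate early genes with a promoter in the table, TGACG on either strand was found in 18 (58.1%), TGACGTCA, which contains it, in 3 (9.68%) and the CArG box in 3 (9.68%). Over the promoters of 11206 tested genes the shares were 29.3%, 2.91% and 1.45%. A match is only a description of these letters and not a measured site.

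Fosb, which pairs with Jun proteins in the AP-1 factor (ENSMUSG00000003545, chromosome 7, 19302696 to 19310051, minus strand, GRCm38), stood at 0.789, 1.48, 1.11 and 1.07 CPM in cKO 1 to 4 and at 52.9 and 95.5 CPM in floxed 1 and 2. The Cre hearts, at 3.80 and 5.01 CPM, were far nearer to cKO than to floxed hearts. The log2 difference was −6.05 between cKO and floxed (SE 0.27, adjusted p = 3.44e-06) and −4.08 between Cre and floxed hearts (adjusted p = 0.000622). Fos, its relative, stood at 6.15, 4.89, 4.32 and 8.49 CPM in cKO 1 to 4, 263 and 287 CPM in floxed and 41.0 and 15.03 CPM in Cre hearts. Its difference between cKO and floxed hearts was −5.52 (SE 0.41, adjusted p = 0.000141), and that between Cre and floxed hearts, −3.29, did not pass (adjusted p = 0.156). Ccn1, a secreted matrix protein, stood at 45.9, 34.0, 36.2 and 37.2 CPM in cKO 1 to 4, 348 and 432 CPM in floxed and 63.4 and 60.9 CPM in Cre hearts. Btg2, an inhibitor of proliferation whose promoter is above, stood at 32.8, 27.4, 37.8 and 32.4 CPM in cKO, 359.9 and 527 CPM in floxed and 65.4 and 59.0 CPM in Cre hearts. The 2 floxed hearts were high and all 6 hearts with Cre were low for both genes. That split was required by 1 of the rules that named them, so it is no added result. The log2 differences from floxed hearts in cKO were −3.35 for Ccn1 (SE 0.13, adjusted p = 8.1e-07) and −3.76 for Btg2 (SE 0.16, adjusted p = 8.22e-07).

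For the members named next that fell, too, the floxed hearts had the highest group mean. Egr1, Egr2 and Egr3, zinc finger factors that answer growth signals, had log2 differences of −4.09, −4.40 and −4.93 between cKO and floxed hearts. Jun fell by 2.67 on the log2 scale, Dusp1, a phosphatase that shuts off MAP kinases, by 2.48, and Zfp36, which destabilises mRNAs, by 2.84. Atf3, a stress factor, had floxed values of 45.5 and 221 CPM, and its call (log2 −3.64, SE 0.79, adjusted p = 0.0144) was lost without floxed 2. Fos, Egr1, Jun, Dusp1 and Zfp36 are among the largest falls or were chosen after their values were seen. Ier5l, a relative of Ier5, was the member that rose, from 7.50 and 7.37 CPM to 12.2 to 20.6 CPM (log2 1.13, SE 0.20, adjusted p = 0.0013). Of the 15 genes called between Cre and floxed hearts, 10 were immediate early genes, all lower with Cre. No other list of genes described here had a member called between Cre and floxed hearts. Comparisons of cKO and of Cre hearts with floxed hearts share the 2 floxed libraries, so a shift of those 2 hearts would appear in both. The cKO hearts set against the Cre hearts, a comparison without the floxed libraries, had 9 members lower and 5 higher and a median of −0.40, where 42.4% of all genes were called. The summed level of the 40 genes was 994 to 1166 CPM in cKO, 1340.0 and 1236 CPM in Cre, and 4270.4 and 5419 CPM in floxed hearts. Apold1 and Otud1, which are not on the list, were also called in both comparisons, at −3.66 and −3.06 between cKO and floxed hearts.

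**Figure D3:**
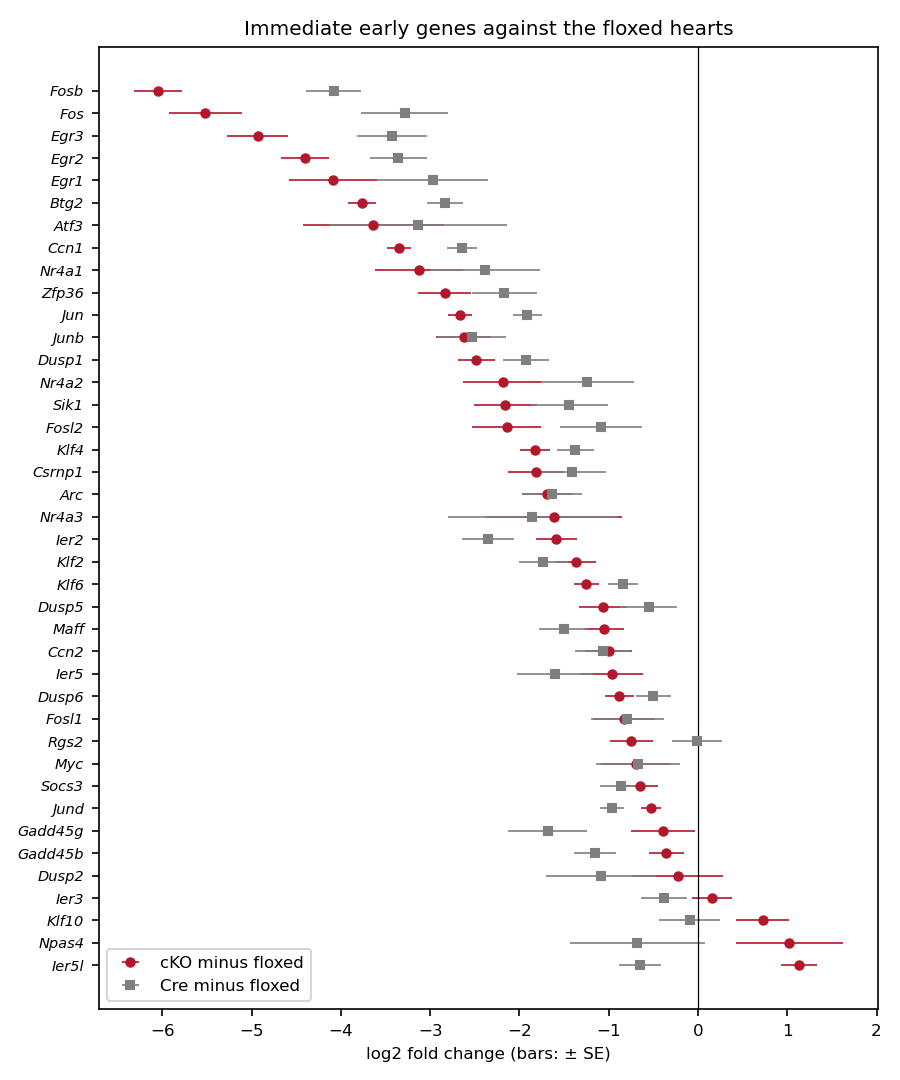
Log2 difference with its standard error for the 40 immediate early genes tested, for cKO minus floxed and for Cre minus floxed hearts. Most points of both comparisons lie below 0, from −6.05 for Fosb in cKO, and Ier5l lies at 1.13 in cKO.

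Calcium handling genes, which load, hold and release the calcium of each beat, were mostly lower. Of 29 tested, 18 were lower and 3 higher, with a median of −0.56, and with length adjustment 17 were lower and 1 higher. Ryr2, the release channel of the sarcoplasmic reticulum, stood at 652, 594, 625 and 488 CPM in cKO 1 to 4 and at 1437 and 1392 CPM in floxed 1 and 2. Trdn, triadin, which anchors calsequestrin to that channel, stood at 59.2, 58.3, 66.5 and 54.7 CPM against 149 and 152 CPM. Both were lower in every cKO heart than in any floxed heart, by 1.26 (SE 0.13, adjusted p = 8.41e-05) and 1.33 (SE 0.10, adjusted p = 3.16e-05) on the log2 scale. Cacna2d1, an accessory subunit of the L-type calcium channel, had a log2 difference of −1.23 (SE 0.12, adjusted p = 7.98e-05). Other members were chosen after their values were seen. Slc8a1, the exchanger that moves calcium out of the cell, stood at 17.3, 10.3, 13.1 and 7.16 CPM in cKO 1 to 4 against 104 and 101 CPM (log2 −3.11, SE 0.27, adjusted p = 0.000121). Atp2a2, the pump that refills the store, stood at 6385, 4825, 5388 and 4113 CPM against 13215 and 13000.3 CPM, and Pln, its inhibitor, at 3027, 2008, 2565 and 1870.3 CPM against 4976 and 5083 CPM. The members that rose were Sln, another pump inhibitor (log2 1.26, adjusted p = 0.0318, not called without cKO 4 or either floxed heart), S100a1 (0.63) and Itpr2 (0.37). Sln, which is also on the list of atrial markers below, lost its call with length adjustment too (log2 1.05), with no filter and with the replicate number as a block. S100a1 stood at 0.00 with length adjustment, and Itpr2 lost its call without cKO 3 or either floxed heart. By length, 15 of the 19 calcium handling genes of 4000 bases and more were lower, against 3 of the 10 shorter ones. Over all protein-coding genes tested, 35.2% of those from 4000 up to 8000 bases and 45.0% of longer ones were lower. In the shorter classes 1.89% to 22.2% were lower.

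Ion channels and connexins, which shape the action potential, had 15 of 31 members lower and 2 higher, with a median of −0.59. Over all genes 23.1% were lower and 19.8% higher. Hcn4, the pacemaker channel of the sinus node, stood at 1.68, 1.78, 2.61 and 2.36 CPM in cKO 1 to 4, 13.0 and 14.1 CPM in floxed and 10.3 and 10.1 CPM in Cre hearts. The groups did not overlap, and the log2 difference of −2.66 (SE 0.18, adjusted p = 1.82e-05) was −2.65 with length adjustment. Kcnj11, the pore of the ATP-sensitive potassium channel, stood at 15.9, 9.49, 11.9 and 8.19 CPM against 57.0 and 48.0 CPM (log2 −2.21, SE 0.21, adjusted p = 0.000103). Kcnd2, a subunit of the transient outward current, went from 25.2 and 23.8 CPM to 7.02 to 8.23 CPM (log2 −1.69, SE 0.13, adjusted p = 3.16e-05). Gja1, connexin 43 of the gap junctions and chosen after its values were seen, stood at 253, 184, 150.2 and 140.3 CPM in cKO 1 to 4 against 457 and 522 CPM (log2 −1.43, SE 0.21, adjusted p = 0.000633). Kcnv2, a silent potassium channel subunit, was 1 of the members that rose (log2 0.97, adjusted p = 0.0193), and its call was lost without either floxed heart.

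Genes of the intercalated disc, where desmosomes, adherens junctions and gap junctions join cardiomyocytes, had 12 of 16 members lower and none higher, with a median of −0.65. Ctnna3, the catenin of the cardiac hybrid junction, stood at 6.58, 4.00, 5.09 and 5.90 CPM in cKO 1 to 4 and at 27.2 and 27.5 CPM in floxed 1 and 2 (log2 −2.34, SE 0.17, adjusted p = 2.73e-05). The Cre hearts, at 19.2 and 15.8 CPM, lay between the groups. Cdh2, N-cadherin, stood at 131, 93.3, 113 and 83.3 CPM against 328 and 321 CPM, and Vcl, vinculin, which links cadherins to actin, at 35.7 to 45.2 CPM against 119 and 114 CPM. No value of the 3 genes overlapped between cKO and floxed hearts, as was so for 60.6% of all genes. Cdh2 fell by 1.63 (SE 0.15, adjusted p = 7.43e-05) and Vcl by 1.50 (SE 0.11, adjusted p = 2.73e-05) on the log2 scale. Dsp, desmoplakin of the desmosome and chosen after its values were seen, stood at 436, 311, 297 and 244 CPM against 1329.7 and 1174 CPM (log2 −1.96, SE 0.18, adjusted p = 7.63e-05). Without floxed 1, 8 members were lower.

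The dystrophin complex, which ties the cytoskeleton to the matrix through the cell membrane, had 15 of 20 members lower, with a median of −0.81, and 15 with length adjustment too. Dmd, dystrophin, stood at 30.2, 32.5, 26.3 and 33.0 CPM in cKO 1 to 4, 91.2 and 85.6 CPM in floxed and 54.7 and 55.4 CPM in Cre hearts. Its level was lowest in cKO, intermediate in Cre and highest in floxed hearts, with a log2 difference of −1.54 between cKO and floxed (SE 0.11, adjusted p = 2.24e-05) and of −0.68 between Cre and floxed hearts (adjusted p = 0.156). Dag1, dystroglycan, stood at 165, 126, 173 and 152 CPM against 439 and 415 CPM (log2 −1.47, SE 0.13, adjusted p = 5.11e-05). Lama2, the laminin chain it binds, had a log2 difference of −0.86 (SE 0.09, adjusted p = 0.000106). Cav3, the caveolin of muscle, was the member that rose (log2 0.51, adjusted p = 0.0126), but it did not pass without either floxed heart, and its length-adjusted value was −0.07.

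Sarcomere genes did not move 1 way. Of 19 thick and thin filament genes, 5 were higher and 5 lower, where 19.8% and 23.1% of all genes were, with a median of 0.02. Without floxed 1 or floxed 2 only 1 and 2 were higher, and with length adjustment 1 was higher and 5 lower. Those that fell were Mybpc3, Ttn, Myom1, Myom2 and Mylk3, and those that rose were Myl2, Myl4, Myl7, Tnni3 and Tnnc1. Myl4 and Myl7 are also on the list of atrial markers given below. Myom2, a protein of the M-band, stood at 744, 548, 604 and 482 CPM in cKO 1 to 4 and at 1579 and 1234 CPM in floxed 1 and 2 (log2 −1.24, SE 0.16, adjusted p = 0.000269). Mybpc3, myosin binding protein C, fell by 0.73 (SE 0.11, adjusted p = 0.000627) on the log2 scale. Tnnc1, the calcium sensor of the thin filament, rose from 1283 and 1293 CPM to 1981 to 2263 CPM (log2 0.71, SE 0.11, adjusted p = 0.000652), but its length-adjusted value of 0.10 did not pass (adjusted p = 0.562). Myh6, whose promoter drives the Cre, stood at 22099.9, 21952, 21674 and 16698 CPM in cKO 1 to 4 and at 25343 and 23158 CPM in floxed hearts, a difference of −0.23 that did not pass (SE 0.15, adjusted p = 0.22). Myh7, the myosin of the fetal heart, varied from 52.7 to 249.7 CPM within cKO and from 209.8 to 388 CPM within floxed hearts and did not pass (log2 −0.84, SE 0.63, adjusted p = 0.329). Acta1, skeletal actin, was above both floxed hearts in all 4 cKO hearts, at 1249, 1845, 918 and 340.3 CPM against 210.1 and 167 CPM, yet its spread kept it from passing (log2 2.53, SE 0.87, adjusted p = 0.0634). Without cKO 4 Acta1 passed, at 2.83 (adjusted p = 0.0319). Of 18 Z-disc genes, 8 were lower and 2, Tcap and Cryab, were higher, both without a call after length adjustment, and Cryab also without either floxed heart. Nebl, nebulette of the Z-disc, stood at 138, 125, 116 and 102 CPM against 286 and 289 CPM (log2 −1.26, SE 0.12, adjusted p = 7.63e-05). The 8 lower Z-disc calls dropped to 5 without either floxed heart, and to 5 with upper-quartile scaling or library size alone.

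Cardiac transcription factors had 18 of 25 members lower and none higher, with a median of −0.87 and 18 lower with length adjustment as well. Esrrg, an orphan receptor that drives oxidative genes, stood at 14.0, 7.81, 11.8 and 8.38 CPM in cKO 1 to 4 and at 44.2 and 42.5 CPM in floxed 1 and 2. The gap between the groups exceeded the spread within either, with a log2 difference of −2.05 (SE 0.19, adjusted p = 8.41e-05) that was −1.75 with length adjustment. Tead1, which binds MCAT elements of muscle genes, stood at 85.6, 83.2, 75.0 and 61.6 CPM against 229 CPM in both floxed hearts (log2 −1.59, SE 0.13, adjusted p = 4.8e-05). Ppargc1a, a coactivator of mitochondrial biogenesis, went from 104 and 99.7 CPM to 34.7 to 47.2 CPM (log2 −1.37, SE 0.12, adjusted p = 6.24e-05). Ppara, the receptor that drives fatty acid oxidation genes and chosen after its values were seen, stood at 6.26, 4.05, 6.46 and 2.74 CPM against 35.7 and 34.1 CPM (log2 −2.85, SE 0.27, adjusted p = 0.000127). Tbx5 was among the 7 that did not pass (log2 0.35, SE 0.19, adjusted p = 0.159).

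Beta-adrenergic and cAMP signalling genes had 13 of 22 members lower and 1 higher, with a median of −0.92. Akap6, which holds protein kinase A at the nuclear envelope, stood at 67.0, 53.0, 47.0 and 38.0 CPM in cKO 1 to 4 and at 198 and 176 CPM in floxed 1 and 2 (log2 −1.87, SE 0.18, adjusted p = 7.68e-05). Prkar1a and Prkar2a, regulatory subunits of that kinase, had log2 differences of −1.22 and −1.28. The member that rose was Ppp1r1a, an inhibitor of protein phosphatase 1 (log2 1.11, adjusted p = 0.033), which lost its call without any 1 of cKO 2, cKO 3, cKO 4 or the floxed hearts. Muscle splicing regulators had 7 of 18 members lower and 4 higher, where 23.1% and 19.8% of all genes were, with a median of −0.29. With length adjustment the median was −0.02, with 7 lower and 3 higher. The 4 rises, of Ptbp1, Ptbp2, Hnrnpu and Sf3b1, were not called without either floxed heart. Qk and Rbfox1, which set muscle exons, had log2 differences of −1.26 (SE 0.13, adjusted p = 8.34e-05) and −1.24 (SE 0.15, adjusted p = 0.000158), and Rbm24 fell by 0.95 (SE 0.10, adjusted p = 0.000101).

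The citric acid cycle and pyruvate dehydrogenase had 21 of 26 members lower and none higher, with a median of −0.79, and 21 lower with length adjustment. Pdp2, the phosphatase that activates pyruvate dehydrogenase, stood at 5.37, 4.40, 4.54 and 3.58 CPM in cKO 1 to 4 and at 17.8 and 20.7 CPM in floxed 1 and 2 (log2 −2.11, SE 0.17, adjusted p = 3.61e-05). Pdha1, a catalytic subunit of that enzyme, stood at 476, 344, 475 and 365 CPM against 1041 and 1053 CPM, and Ogdh, of the citric acid cycle, at 984, 760.0, 988 and 788 CPM against 2092 and 1939.7 CPM. Every cKO value of the 3 genes was below every floxed value, where 60.6% of all genes had these groups apart. The log2 differences were −1.33 (SE 0.14, adjusted p = 0.000109) for Pdha1 and −1.20 (SE 0.13, adjusted p = 0.000127) for Ogdh.

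Fatty acid oxidation had 16 of 31 members lower and 1 higher, with a median of −0.46. Acadm, the medium-chain acyl-CoA dehydrogenase, stood at 473, 289, 427 and 346 CPM in cKO 1 to 4 and at 1074 and 1056 CPM in floxed 1 and 2 (log2 −1.47, SE 0.17, adjusted p = 0.000136). Etfdh, which passes its electrons to ubiquinone, fell by 1.38 (SE 0.17, adjusted p = 0.000185), and Crat, carnitine acetyltransferase, by 0.73 (SE 0.11, adjusted p = 0.000505) on the log2 scale. Cpt1b, the muscle carnitine palmitoyltransferase that admits fatty acids to mitochondria, stood at 416 to 487 CPM against 527 and 476 CPM and did not pass (log2 −0.15, SE 0.11, adjusted p = 0.288). The member that rose was Etfb (log2 0.76, adjusted p = 0.00096), at 0.07 with length adjustment. Without floxed 1, 10 members of the list were lower.

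Use of branched-chain amino acids and ketones had 15 of 23 members lower and none higher, with a median of −0.87, and 19 lower with length adjustment. Dbt, the core of the branched-chain ketoacid dehydrogenase, stood at 27.2, 29.1, 26.6 and 25.5 CPM in cKO 1 to 4 and at 76.8 and 70.5 CPM in floxed 1 and 2 (log2 −1.44, SE 0.10, adjusted p = 1.82e-05). Aldh6a1, of valine breakdown, stood at 57.8 to 81.7 CPM against 216 and 197 CPM (log2 −1.55, SE 0.13, adjusted p = 5.09e-05), and Ivd, of leucine breakdown, had a log2 difference of −1.29 (SE 0.12, adjusted p = 6.24e-05). The groups were apart for all 3 genes, as they were for 60.6% of all genes. Glycolysis and glycogen genes had 11 of 28 lower and 2 higher, with a median of −0.20, and the lower ones included Gys1 (log2 −1.05) and Pygb (−1.13), which build and break down glycogen. The 2 that rose, Eno1 (log2 0.47) and Pgam2 (0.91), did not pass with length adjustment, and Eno1 did not without cKO 3 or either floxed heart. Upper-quartile scaling called 7 members higher.

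Nuclear genes of the respiratory chain were mostly higher, with a few subunits lower. Complex I had 29 of 36 members higher and 1 lower, with a median of 0.73, and the other complexes had 26 of 39 higher and 5 lower, with a median of 0.58. With length adjustment the counts were 21 higher and 4 lower for complex I and 12 higher and 9 lower for the others, with medians of 0.30 and 0.08. Of complex I, all 17 genes under 1000 bases were higher, 6 of 11 from there up to 2000 bases, 4 of 6 (with 1 lower) from there up to 4000 bases, and both longer ones. Of the other complexes, 17 of 18, 5 of 12, 2 of 7 and 2 of 2 were higher in the same classes. Over all protein-coding genes tested, 66.4%, 36.6%, 19.0% and 10.9% were higher in these classes. The complex I gene that fell was Ndufs1, the large core subunit that takes part in electron entry, at 301, 212, 275 and 225 CPM in cKO 1 to 4 and 635 and 639 CPM in floxed 1 and 2 (log2 −1.33, SE 0.14, adjusted p = 0.000101). Ndufb7, a small accessory subunit of the same complex, went the other way, at 383, 545, 490.4 and 596 CPM against 202 and 195 CPM (log2 1.34, SE 0.17, adjusted p = 0.000208). Length adjustment left both nearly where they were, at −1.27 for Ndufs1 and 1.36 for Ndufb7, whereas the rise of Ndufa6 went from 0.91 to 0.43. These values, like the length classes above, rest on the longest annotated transcript of each gene. In complex II, Sdha, the flavoprotein shared with the citric acid cycle, stood at 703, 468, 679 and 557 CPM against 1529 and 1482 CPM (log2 −1.32, SE 0.15, adjusted p = 0.000146). In complex III, Uqcrq, a small subunit, stood at 905, 1277, 1051 and 1382 CPM against 447 and 443 CPM (log2 1.37, SE 0.17, adjusted p = 0.000207), and at 1.15 with length adjustment.

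Of 15 genes of mitochondrial DNA, 6 were lower and 2, mt-Rnr1 and mt-Nd3, higher, with a median of −0.31. mt-Nd5 stood at 7948, 15880.5, 9341 and 7795 CPM in cKO 1 to 4 and at 22316 and 24324 CPM in floxed 1 and 2 (log2 −1.19, SE 0.26, adjusted p = 0.00543). mt-Rnr1, the small ribosomal RNA, stood at 2392, 3766, 2401 and 3588 CPM against 1425 and 1524 CPM (log2 1.04, SE 0.21, adjusted p = 0.00263). cKO 2 was the highest of the 4 cKO hearts for both genes and had the highest share of mitochondrial counts among them, 29.3%. The call of mt-Nd3 (log2 0.74, adjusted p = 0.0393) was lost without any 1 of cKO 2, cKO 3, cKO 4, floxed 1, Cre 1 or Cre 2, down to 0.46 without floxed 1, and with length adjustment. The 6 lower calls became 3 without cKO 3, 2 without floxed 1 and 1 without floxed 2. Genes of mitochondrial dynamics and genome upkeep had 15 of 27 lower and 4 higher, with a median of −0.45. Opa1, which fuses inner membranes, stood at 87.9, 64.2, 87.9 and 61.5 CPM against 206 and 207 CPM (log2 −1.46, SE 0.15, adjusted p = 0.000102). Mfn2, which fuses outer membranes, had a log2 difference of −1.20 (SE 0.11, adjusted p = 6.44e-05), and Immt, of the cristae junctions, of −1.01 (SE 0.12, adjusted p = 0.000197).

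Cytosolic ribosomal protein genes were higher almost throughout. Of 81 tested, 79 were higher and none lower, with a median of 0.89, and without floxed 1 or floxed 2 the count was 73 and 74. Rps21 stood at 234, 235, 253 and 308 CPM in cKO 1 to 4 and at 107 and 104 CPM in floxed 1 and 2 (log2 1.28, SE 0.14, adjusted p = 0.000121), and Rps15 at 349, 481, 423 and 489 CPM against 188 and 184 CPM (log2 1.23, SE 0.15, adjusted p = 0.000167). The groups were apart for both genes, as they were for 60.6% of all genes. These transcripts are short, with a median longest transcript of 1106 bases against 3268 over all genes. With length adjustment 64 were higher and none lower, the median was 0.50, and Rps21 stood at 0.76 and Rps15 at 0.38. The 2 members that did not pass were Rpl3l, a muscle form (log2 0.21, adjusted p = 0.147), and Rpl7l1 (0.14, adjusted p = 0.308). Many of these genes have near-identical processed copies, between which estimated counts can be divided. Mitochondrial ribosomal protein genes had 44 of 78 higher and 8 lower (median 0.38), 28 higher and 13 lower with length adjustment, and 27 and 3 without floxed 1. Mrpl20 rose by 1.13 on the log2 scale (SE 0.12, adjusted p = 0.000101), and the rise of Mrpl14 by 0.94 was 0.14 with length adjustment. Proteasome genes had 13 of 34 higher and 5 lower (median 0.17), where 19.8% and 23.1% of all genes were. With length adjustment 6 were higher and 9 lower, and fewer were called in each direction without floxed 1. Psmd1, a base subunit, stood at 58.2, 47.2, 54.2 and 38.6 CPM against 109 and 114 CPM (log2 −1.17, SE 0.15, adjusted p = 0.000215).

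**Figure D4:**
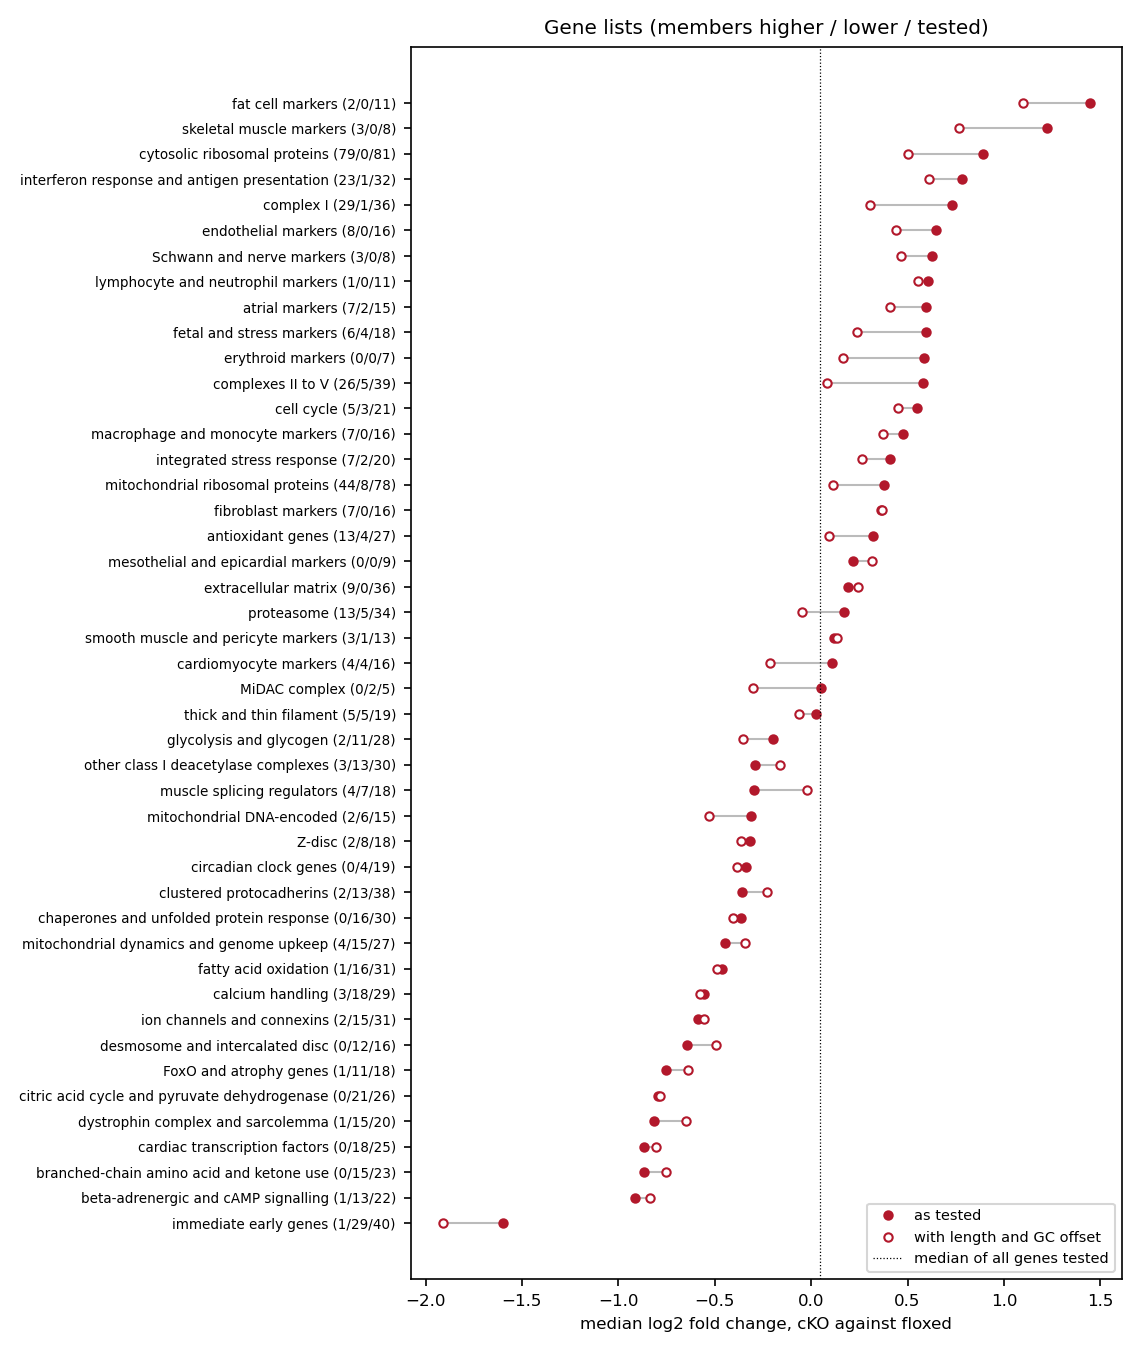
Median log2 difference between cKO and floxed hearts of each gene list, as tested (filled) and with length and GC offset (open), with the median of all genes as a dotted line. Immediate early genes lie lowest at −1.60, and the medians of cytosolic ribosomal proteins and complex I shift from 0.89 to 0.50 and from 0.73 to 0.30 with the offset.

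Among the largest rises, Pcdhgc4 stood out by level. This clustered protocadherin, a cell adhesion molecule known mainly from neurons, stood at 31.3, 45.5, 42.5 and 55.4 CPM in cKO 1 to 4, 1.24 and 2.01 CPM in floxed and 5.13 and 2.00 CPM in Cre hearts. The lowest cKO heart was also above both Cre hearts, which the naming rule for the largest rises did not require. The log2 difference from the floxed hearts was 4.76 (SE 0.45, adjusted p = 0.000203) and 4.80 with length adjustment. Of 38 clustered protocadherins tested, 13 were lower, all of the gamma cluster, and 2, Pcdhgc4 and Pcdha4, were higher, with a median of −0.36. Pcdhga7 stood at 1.79, 1.28, 1.37 and 0.685 CPM against 5.18 and 5.60 CPM (log2 −2.09, SE 0.29, adjusted p = 0.000329), and Pcdhga10 had a log2 difference of −1.97 (SE 0.28, adjusted p = 0.000351). All gamma members share their last exons and differ in the first, so estimated counts can be divided between them and each value is uncertain. Without floxed 1 or floxed 2, 9 and 8 members were lower.

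Mt3, a metallothionein that binds zinc and copper, stood at 10.6, 14.6, 13.2 and 8.57 CPM in cKO 1 to 4 and at 2.40 and 1.57 CPM in floxed 1 and 2 (log2 2.55, SE 0.33, adjusted p = 0.000285, and 1.72 with length adjustment). Angptl4, a secreted inhibitor of lipoprotein lipase, stood at 4.31, 7.46, 17.6 and 8.80 CPM in cKO, 1.37 and 1.33 CPM in floxed and 5.999 and 6.81 CPM in Cre hearts (log2 2.83, SE 0.59, adjusted p = 0.00658), so that the Cre hearts lay within the cKO range. Rbp7, a retinol binding protein, went from 3.30 and 4.08 CPM to 8.78, 17.7, 27.6 and 25.2 CPM (log2 2.43, SE 0.53, adjusted p = 0.00878). Neither Angptl4 nor Rbp7 was called without either floxed heart. The other large rises reported here, Apoc1, Sap25, Adig, Acaa1b, Trpc2 and Insl3, rested on 0 to 12.4 estimated counts in each floxed library, so no fold is given for them. Apoc1, Adig, which is a fat cell gene, and Acaa1b were high in cKO 3 and cKO 4, at 8.86 and 7.54, 4.97 and 5.79, and 2.95 and 2.13 CPM, the 2 hearts with high fat cell markers, and at 1.24 CPM or lower in cKO 1 and cKO 2. The part of fat tissue in these values was not tested.

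Interferon response and antigen presentation genes had 23 of 32 members higher and 1 lower, with a median of 0.78, and 20 higher with length adjustment. Psmb10 and Psmb8, subunits of the immunoproteasome, stood at 45.2, 56.2, 51.8 and 59.2 CPM against 26.7 and 27.8 CPM, and at 19.0, 27.6, 21.0 and 26.9 CPM against 8.44 and 10.7 CPM. Xaf1, an interferon-induced gene, stood at 12.9, 14.4, 13.4 and 16.7 CPM against 7.02 and 6.88 CPM. The 3 genes were higher in every cKO heart, by 0.96 (SE 0.13, adjusted p = 0.000325), 1.31 (SE 0.19, adjusted p = 0.000381) and 1.05 (SE 0.15, adjusted p = 0.000461) on the log2 scale. Without floxed 1, 9 members of the list were higher. Macrophage and monocyte markers, which moved with this list, had 7 of 16 higher and none lower, with summed levels of 396 to 513 CPM in cKO and 265 and 318 CPM in floxed hearts, and their part in the result was not tested. Without floxed 1, 3 of them were higher. C1qa, a complement gene of macrophages, stood at 59.3, 81.7, 73.7 and 92.0 CPM against 29.6 and 31.0 CPM (log2 1.34, SE 0.17, adjusted p = 0.00022, and 0.62 with length adjustment).

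Stress groups were mixed. Of 18 fetal and stress markers, 6 were higher and 4 lower, where 19.8% and 23.1% of all genes were, with a median of 0.60. With length adjustment 3 were higher and 3 lower, with a median of 0.24, and 2 were higher without either floxed heart. Timp1, an inhibitor of matrix proteases, stood at 3.58, 6.72, 4.28 and 7.73 CPM in cKO 1 to 4 and at 1.16 and 1.42 CPM in floxed 1 and 2 (log2 2.12, SE 0.35, adjusted p = 0.000866). Lgals3, galectin-3 of macrophages and injured tissue, stood at 11.3, 21.9, 24.0 and 22.3 CPM against 3.64 and 5.60 CPM (log2 2.11, SE 0.32, adjusted p = 0.000869), and Rcan1, an inhibitor and target of calcineurin, fell by 0.79 (SE 0.13, adjusted p = 0.000822) on the log2 scale. Nppa, the atrial natriuretic peptide, chosen after its values were seen, stood at 2730.2, 6090.4, 4288 and 4610.4 CPM against 1713 and 1716 CPM (log2 1.37, SE 0.31, adjusted p = 0.00736), with no call after length adjustment or without either floxed heart. The list of atrial markers, which includes Nppa, had 7 of 15 members higher and 2 lower. Its summed levels, with Nppa in them, were 6572 to 12882 CPM in cKO and 4792 and 4754 CPM in floxed hearts. With length adjustment 3 members were higher and 2 lower. At most 1 atrial marker was higher without either floxed heart, and the part of atrial tissue in these values was not tested.

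Chaperones and genes of the unfolded protein response had 16 of 30 members lower and none higher, with a median of −0.37, and 10 lower without floxed 2. Atf6, a sensor of the endoplasmic reticulum, stood at 51.0, 41.1, 45.9 and 43.7 CPM in cKO 1 to 4 against 103 and 109 CPM (log2 −1.23, SE 0.11, adjusted p = 5.68e-05). Hspa5, the main chaperone there, stood at 186 to 244 CPM against 456 and 402 CPM (log2 −1.05, SE 0.13, adjusted p = 0.000192). Both genes were apart between the groups, as were 60.6% of all genes. The integrated stress response had 7 of 20 higher and 2 lower (median 0.41), where 19.8% and 23.1% of all genes were. Fewer members were higher without floxed 1 or floxed 2. Pck2, a mitochondrial enzyme, had a log2 difference of 1.05 (SE 0.18, adjusted p = 0.000988). The summed level of the list was nevertheless lower, at 503 to 628 CPM in cKO against 666 and 661 CPM in floxed hearts. Antioxidant genes had 13 of 27 higher and 4 lower (median 0.32), 8 and 3 with length adjustment, and 7 higher without floxed 1. Gpx4, which reduces lipid peroxides, stood at 743, 856, 757 and 699.7 CPM against 324 CPM in both floxed hearts (log2 1.24, SE 0.13, adjusted p = 0.000103), and at 0.51 with length adjustment. FoxO and atrophy genes had 11 of 18 lower and 1 higher (median −0.75), among them Fbxo32, the ubiquitin ligase atrogin-1, at 80.6, 82.6, 81.6 and 55.4 CPM against 186 and 196 CPM (log2 −1.35, SE 0.16, adjusted p = 0.000167).

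Extracellular matrix genes had 9 of 36 members higher and none lower (median 0.19), a share higher that lies near the 19.8% of all genes, with 3 and 4 higher without floxed 1 or floxed 2. Cilp, a matrix protein of cardiac fibroblasts, stood at 14.9, 16.2, 10.5 and 12.8 CPM in cKO 1 to 4 against 6.38 and 7.42 CPM (log2 0.98, SE 0.19, adjusted p = 0.00179), and Tgfb1 rose by 0.73 (SE 0.13, adjusted p = 0.00153). Fibroblast markers, which moved with this list, had 7 of 16 higher and none lower, with summed levels of 3105 to 4059 CPM in cKO and 2499 and 2644 CPM in floxed hearts, and 4 higher without floxed 1. Their part in the matrix values was not tested. Pi16, of adventitial fibroblasts, stood at 77.9, 81.4, 85.3 and 101 CPM against 36.2 and 36.3 CPM (log2 1.26, SE 0.13, adjusted p = 0.000102). Endothelial markers had 8 of 16 higher and none lower, with summed levels of 2681 to 3673 CPM against 1985 and 1974 CPM. Egfl7, secreted by endothelium, stood at 143, 219, 157 and 241 CPM against 76.5 and 76.7 CPM (log2 1.31, SE 0.21, adjusted p = 0.00101), and Eng, a coreceptor of the vessel wall, at 230.0, 276, 286 and 288 CPM against 151 and 152 CPM (log2 0.83, SE 0.13, adjusted p = 0.000666). Every cKO heart was above both floxed hearts for the 3 genes, where 60.6% of all genes had these groups apart in either direction. Fat cell markers had 2 of 11 higher, Fabp4 and Pparg, a share near the 19.8% of all genes. Fabp4, which endothelial cells also make and which is on both lists, stood at 601, 831, 1162 and 1058 CPM against 307 and 287 CPM (log2 1.62, SE 0.28, adjusted p = 0.00178). Without cKO 2, 5 fat cell markers were higher. Erythroid and mesothelial markers had no member called of 7 and 9 tested by edgeR, DESeq2 or limma voom, and 0 passed an unadjusted p under 0.05. Without both cKO 3 and cKO 4, 4 mesothelial markers were lower, at summed levels of 17.5 and 19.3 CPM in cKO 1 and cKO 2 against 35.4 and 39.5 CPM in floxed hearts. Lymphocyte and neutrophil markers had 1 of 11 higher, which was not called without either floxed heart. The cardiomyocyte list had 4 of 16 higher and 4 lower, near the 19.8% and 23.1% of all genes.

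Outside MiDAC, subunits of the other complexes built on class I deacetylases had 13 of 30 lower and 3 higher, with a median of −0.29, and 8 lower without floxed 1. Ncor1, the nuclear receptor corepressor, stood at 63.1, 59.6, 57.9 and 49.3 CPM in cKO 1 to 4 and at 128 and 116 CPM in floxed 1 and 2 (log2 −1.08, SE 0.12, adjusted p = 0.000122, and −0.66 with length adjustment). Rcor1 and Tbl1x, of the CoREST and NCoR complexes, had log2 differences of −0.74 and −0.62. Of 19 circadian clock genes, 4 were lower, against 23.1% of all genes, and none higher, but 4 were called higher with only the groups compared or without either Cre heart, and 3 by DESeq2, with upper-quartile scaling or with library size alone. Clock, which drives the cycle, stood at 16.3 to 17.3 CPM against 32.9 and 30.2 CPM (log2 −0.91, SE 0.10, adjusted p = 0.000121), and Bhlhe40, a repressor in the cycle, at 33.1 to 44.1 CPM against 78.3 and 84.0 CPM, with the Cre hearts between them at 49.9 and 52.8 CPM. Of 21 cell cycle genes, 5 were higher and 3 lower, where 19.8% and 23.1% of all genes were, with fewer of each without either floxed heart. The called members included Cdkn1c, a kinase inhibitor, at 1.30 (SE 0.21, adjusted p = 0.000837) and Ccng1, a p53 target, at −1.09 (SE 0.13, adjusted p = 0.000158). The summed level of the list was lower, at 686 to 799 CPM in cKO against 1086 and 1150 CPM in floxed hearts.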

How the data were processed

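Per the labels' protocols, RNA of whole hearts was extracted in TRIzol and libraries were prepared by NEBNext Ultra RNA chemistry. The deposited table holds 1 estimated count per gene and library: the authors' values were whole within 1e-06 in 71.95% to 76.34% of nonzero cells and were rounded here before testing. STAR 2.5.1b, DESeq2 and the builds mm10 and GRCm38 appear, without roles, in the submitters' processing notes. No source used here gives the counting tool, annotation or strand setting.

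All 8 libraries were fitted with 3 group means (edgeR 4.0.16 in R 4.3.3: TMM, filterByExpr, robust quasi-likelihood fit, 5 residual degrees of freedom), with Benjamini-Hochberg adjustment over 15289 genes and a threshold of 0.05. The standard error is the log2 difference divided by the root of F. Transcript lengths and GC content came from the GRCm38 annotation for 15216 tested genes (99.5%), and the length and GC offset from smooth terms in mgcv 1.9.3. Promoters came from RefSeq. Alternatives used DESeq2 1.42.0 and limma 3.58.1, other scalings and filters, the replicate number as a block, and each library left out. The fits were tested on simulated counts.

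Named genes were Elmsan1, the 12 largest rises and 12 largest falls (called, mean of at least 1 CPM, groups apart, no provisional name), at most 3 called genes by smallest p of each list, the 8 largest differences called in both Cre and cKO against floxed hearts, and list members without a call. The 8 genes called in both comparisons met the same filters and had both Cre hearts on 1 side of both floxed hearts. Other called genes, given as chosen after their values were seen or where a direction had 5 or fewer members, lie outside this rule. The comparison and the gene lists were chosen with earlier results of these data known. A few genes that this rule names are not reported here.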

Additional observations from a re-analysis of the deposited data

Results flagged for a closer look

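Among the 182 genes named by the rule or beside it, 8 had 1 of the 4 cKO hearts far from the other 3 by the 4-sample gap rule of Dixon, where chance flags about 1 in 20 groups. Elmsan1 was lowest in cKO 4 at 11.996 CPM, against 15.2 to 15.5 CPM in cKO 1 to 3, so the targeted gene varied little among the other 3. Fbxo32 was lowest in cKO 4 at 55.4 CPM, against 80.6 to 82.6 CPM, and Myh6 was lowest in cKO 4 at 16698 CPM, against 21674 to 22099.9 CPM. Higd1b, a pericyte marker, was highest in cKO 4 at 16.6 CPM, against 8.94 to 9.89 CPM, and all 4 were above the floxed hearts at 3.43 and 3.73 CPM. Its list of smooth muscle and pericyte markers had 3 of 13 higher and 1 lower, where 19.8% and 23.1% of all genes were. With length adjustment 1 was higher and 1 lower. Lgals3 was lowest in cKO 1 at 11.3 CPM, and Notch3, of pericytes, was highest there at 56.4 CPM, against 40.9 to 43.3 CPM in the others. Gys1 was highest in cKO 3 at 63.4 CPM, and Tcap was highest in cKO 2 at 3411 CPM, against 2554 to 2644 CPM. Without the heart in question, the calls of Elmsan1, Fbxo32, Higd1b, Lgals3, Gys1, Tcap and Notch3 remained past the threshold.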

How the results depend on the processing

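Both control hearts weighed on the counts. Leaving out 1 library at a time gave 1336 to 3227 higher and 2235 to 3810 lower genes, with the lowest counts without a floxed heart, and 3554 and 3589 of the 6559 calls kept without floxed 1 and floxed 2. Of 145 genes named by the rule, 117 kept direction and call in all 21 alternatives. The length and GC offset ended 12 of these calls. Between Cre and floxed hearts 15 genes were called, 57 by DESeq2, 23 by limma voom, 31 with no filter, 32 with only the groups compared, 84 with the replicate block, 32 without both cKO 3 and cKO 4 (chosen after seeing the data), and 7 to 18 with 1 library left out. The rank correlation with length was −0.326 without both cKO 3 and cKO 4. Values near 0 that changed sign were Cav3 (−0.071 with the length and GC offset), Hdac1 (−0.042 with the length offset), Myh6 (0.031 with the length offset), Rpl3l (−0.25 and −0.14 with these offsets) and Dnttip1 (−0.30 and −0.22 with these offsets, −0.021 to 0.095 with 1 library left out, the lowest without cKO 3, −0.090 without both cKO 3 and cKO 4 and −0.093 with the replicate block). The cause of these changes was not tested. The replicate numbers in the labels give no shared animal, and same-numbered cKO and floxed libraries had deviations correlated by 0.128 and −0.095. The replicate block, in which cKO 3 and cKO 4 have no partner, gave 2389 higher and 2943 lower genes. Depth limits genes such as Apoc1, with 4 counts in each floxed library.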
